A study of Mus musculus with 24 samples.

Results

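After treatment with LNP-CDN plus anti-PD-L1, cells of pleural tumors were compared with cells of the pleural effusion in 6 of the 24 RNA libraries, 3 from each tissue. The genes described are the 13312 of 54505 in the table that reached an FPKM (sequenced fragments per unit of gene length and of library depth) of at least 1 in at least 3 of the 6 libraries. All mice were C57BL/6 and carried Lewis lung carcinoma, a mouse lung cancer line, in the pleural cavity, a model of malignant pleural effusion. The treated mice received on day 11, by injection into the pleural cavity, LNP-CDN, nanoparticles carrying the cyclic dinucleotide cGAMP, at a labelled dose of 1 µg and 30 µg of the anti-PD-L1 antibody 10F.9G2. The comparison groups used below received phosphate-buffered saline (PBS) or LNP-CDN alone, and each group had 3 libraries per tissue. A group given the antibody alone entered the fits over 24 libraries, where it shares in the estimate of spread. No test below compares it. For the 1 sex-linked gene tested, its tumor minus effusion difference in log2(FPKM + 1) was 2.46. That difference was 0.20 after the combination, 0.44 after PBS and 0.02 after LNP-CDN alone. Tissue was collected on day 13. Effusion cells were pelleted and red cells lysed, whereas tumors were cut up and digested with enzymes at 37 °C for 1 h before red cell lysis. Tissue of origin and digestion therefore cannot be told apart. The labels give 3 mice per treatment but do not say which tumor library and which effusion library came from the same mouse, and the p-values measure the spread between these libraries.

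STING is an adaptor protein that binds cyclic dinucleotides such as cGAMP and, through the kinase TBK1 and the transcription factor IRF3, induces type I interferon. Interferon in turn induces a large set of antiviral genes, antigen presentation genes and the checkpoint ligand PD-L1, which the antibody blocks. A malignant effusion holds floating immune and tumor cells, and the serous cavities normally contain resident macrophages that depend on the factor GATA6. Solid tumor adds stroma, meaning fibroblasts, vessels and extracellular matrix. In bulk RNA, fewer cells of a type and less RNA per cell cannot be told apart.

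The 6 libraries held 18426647 to 23771764 reads recovered from the deposited values. Across genes, libraries of the same tissue correlated at r of 0.985 to 0.990 and libraries of different tissues at 0.673 to 0.707, a description over genes that are not independent. Mitochondrially encoded genes took 1.27 to 1.39% of reads in tumor and 0.310 to 0.349% in effusion. Ribosomal protein genes took 4.82 to 4.88% and 1.52 to 1.85%. Effusion replicate 3 was the least like its own tissue, at r of 0.986 and 0.985 against 0.989 between effusion replicates 1 and 2. Its r with tumor was 0.701 to 0.707, against 0.673 to 0.687 for those 2 replicates. It also held Alb, the liver gene for serum albumin, at an FPKM of 12.1 against 0.0246 or less in the other 5 libraries. Tumor replicate 1 had the highest skeletal muscle RNA.

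Tumor and effusion differed at most genes. Of 13295 genes tested, 11064 passed an adjusted p of 0.05 (83.2%), with 5378 higher in tumor (40.5%) and 5686 higher in effusion (42.8%). The values of the 3 tumor and 3 effusion libraries did not overlap for 85.1% of genes. A call alone therefore says little about any gene, and a second limit of a log2 difference of at least 2 was added. It left 638 genes higher in tumor (4.8%) and 1175 higher in effusion (8.84%). The filter itself shaped these shares, since 1084 genes passed it through tumor alone and 961 through effusion alone. The median difference over all genes, tumor minus effusion on the log2(FPKM + 1) scale, was -0.02 and the median absolute difference 0.77, against a median replicate SD of 0.07 in tumor and 0.10 in effusion. The deposited values were not scaled to total reads. Their depth factor was 1.16 to 1.18 times the recovered reads in tumor and 0.874 to 0.901 times those in effusion. Scaling to total reads, chosen after seeing the data, moved tumor up by 0.41 on the log2 scale. Then 7081 genes were called higher in tumor and 4171 in effusion. Upper-quartile scaling moved it by 0.26 and gave 6492 and 4695. Differences smaller than these shifts depend on the scaling.

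**Figure D1:**
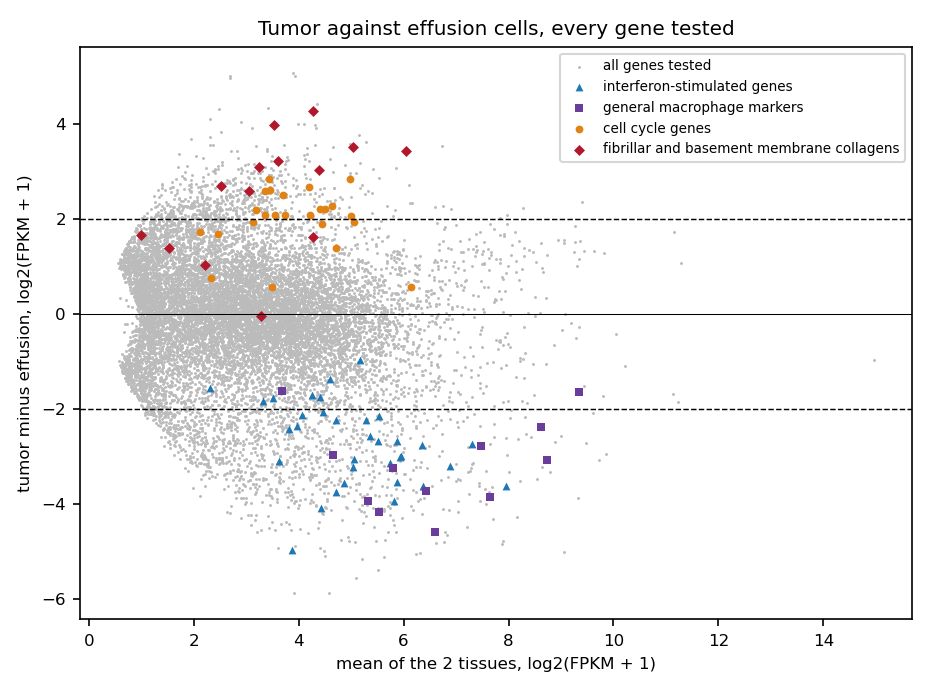
Each point is 1 of the 13295 genes tested, with the mean level of the 2 tissues on the horizontal axis and the tumor minus effusion difference on the vertical axis, both on the log2(FPKM + 1) scale. Dashed lines mark differences of 2 and -2. All general macrophage markers and interferon-stimulated genes tested lie below 0, all cell cycle genes lie above 0, and 13 of 14 collagens were called higher in tumor. The outer sloping edges come from the floor of 0 on the log2(FPKM + 1) scale, and the filter removed genes that were low in both tissues.

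Extracellular matrix and stromal genes led the tumor side. Lum, which encodes the collagen-binding proteoglycan lumican, stood at an FPKM of 78.1, 93.8 and 83.6 in the 3 tumor libraries and 1.75, 1.13 and 1.86 in effusion. The groups were far apart, with a log2 difference of 5.07 ± 0.12 (SE, n = 3 per tissue) and adjusted p = 7.03e-08. Dpt, encoding the matrix protein dermatopontin, was at 33.4, 37.6 and 36.7 in tumor and at 0.144, 0.134 and 0.139 in effusion. Mmp3, the secreted protease stromelysin 1, was at 68.2, 108 and 78.5 in tumor and at 2.76, 0.96 and 1.43 in effusion, where its values were low in every library. Dkk2, a secreted modulator of Wnt signalling, averaged 92.3 ± 9.2 in tumor and 3.41 ± 0.834 in effusion. Thbs2, an inhibitor of vessel growth, averaged 47.1 ± 3.95 and 1.38 ± 0.13 (SD, n = 3 each).

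Collagens were higher in tumor as a group. Of 14 fibrillar and basement membrane collagen genes tested, of 17 in the list, 13 were called higher in tumor and none higher in effusion, 2 of the 14 having passed the filter through tumor alone, and 9 passed the limit of 2, with a median difference of 2.86. The family members differed in size: Col3a1, a fibrillar collagen of soft tissue, averaged 216 ± 6.62 in tumor and 19.4 ± 3.21 in effusion, and Col1a1 33.3 ± 7.2 and 9.99 ± 1.24. Col1a2, the partner chain of Col1a1 in type I collagen, stood at 12.6, 6 and 7.65 in tumor and 9.49, 8.9 and 7.68 in effusion. Its groups overlapped and its difference of -0.05 did not pass (adjusted p = 0.862). Col18a1, whose C-terminal fragment is endostatin, averaged 84.2 ± 3.71 and 3.42 ± 0.159, and Col6a3 44.8 ± 3.02 and 1.89 ± 0.16. Among 17 matrix glycoproteins and proteoglycans, 15 were higher in tumor and 2 in effusion, 4 of the 17 having passed the filter through tumor alone. The exceptions were Thbs1, a thrombospondin released by platelets and macrophages, at 38.4 ± 6.74 in tumor and 288 ± 36.3 in effusion, and Vcan, the proteoglycan versican, at 23.3 ± 2.13 and 51.3 ± 7.75.

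Enzymes that act on matrix split by member. Of 17 matrix protease and inhibitor genes, 12 were higher in tumor and 4 in effusion, 5 of the 17 having passed the filter through tumor alone. Mmp14, a membrane-bound collagenase, averaged 58.8 ± 2.86 in tumor and 13.7 ± 2.81 in effusion, and Bmp1, which trims procollagen, 34.3 ± 0.819 and 2.18 ± 0.426. In contrast, Mmp9, the gelatinase of neutrophils and macrophages, stood at 4.93, 4.87 and 4.87 in tumor and at 96.2, 124 and 54.3 in effusion. Mmp8, neutrophil collagenase, averaged 5.02 ± 1.6 and 156 ± 47.2, and Mmp19 7.16 ± 0.661 and 68.2 ± 6.06. Plau, encoding the urokinase protease, had overlapping groups at 61.4 ± 5.04 and 49.8 ± 9.48 and did not pass (adjusted p = 0.0602). Among 12 TGF-beta pathway genes, 8 were higher in tumor and 3 in effusion, 3 of the 12 having passed the filter through tumor alone. The ligand gene Tgfb1 was on the effusion side at 9.00 ± 0.398 and 37.0 ± 1.43, as was the target gene Tgfbi at 46.2 ± 2.15 and 470 ± 45.2, whereas the co-receptor gene Tgfbr3 averaged 32.7 ± 1.15 in tumor and 3.83 ± 0.538 in effusion.

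Vessel and mesenchymal markers were mostly on the tumor side. Of 9 endothelial markers tested, 8 were higher in tumor, but 5 of the 9 passed the filter through tumor alone and so had to differ. A filter of an FPKM of at least 1 in all 6 libraries left 2 of the 9, with 1 called on each side. The 3 pericyte and smooth muscle markers tested were higher in tumor too, but 2 of them passed the filter through tumor alone and so had to differ. Plvap, of the diaphragms of fenestrated endothelium, averaged 17.0 ± 2.02 in tumor and 0.36 ± 0.117 in effusion, and the tight junction gene Cldn5 5.75 ± 0.134 and 0.0136 ± 0.0235. Both genes passed the filter through tumor alone. Kdr, the VEGF receptor 2 gene, went the other way at 1.5 ± 0.246 and 3.58 ± 0.571. The 2 lymphatic endothelial markers tested were also higher in effusion, with 1 of them called under total-read scaling. Among 11 fibroblast markers, 2 of which passed the filter through tumor alone, 8 were higher in tumor, while Thy1 and Pi16 were higher in effusion. Mesothelial markers, of the lining of the pleura, were mixed, with 2 of 8 higher in tumor and 6 in effusion. Of the 8, 1 passed the filter through tumor alone and so had to differ. A filter of an FPKM of at least 1 in all 6 libraries left 1 of the 8, higher in tumor. Msln, encoding mesothelin, averaged 36.4 ± 4.47 in tumor and 16.7 ± 2.9 in effusion, but Upk3b 0.963 ± 0.455 and 2.76 ± 0.569. Skeletal muscle genes were uneven within tumor, with Acta1, skeletal alpha-actin, at 59.5, 5.62 and 20.9 in tumor and at 0.0781 or less in effusion. The summed muscle list ran from 18.2 to 149.9 in the tumor libraries and from 4.86 to 4.95 in effusion, and the part of muscle RNA in other tumor differences was not tested.

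Some keratin, imprinted and growth genes were also higher in tumor. Krt8, Krt18, Hmga2 and Myc were present in effusion as well, while most imprinted genes tested stayed under an FPKM of 1 there. Of 5 epithelial keratin and junction genes tested, 3 were higher in tumor and 2 in effusion, with 1 on each side having passed the filter through that tissue alone. The simple-epithelial keratin genes Krt8 and Krt18 averaged 88.0 ± 4.35 and 121 ± 8.17 in tumor and 13.4 ± 2.36 and 13.8 ± 3.59 in effusion. Epcam, an epithelial adhesion gene, was near 0 in both tissues, at 0.138 or less in tumor and 0.152 to 0.97 in effusion. Krt19, another simple-epithelial keratin, and Cdh1, the adhesion gene E-cadherin, were higher in effusion, at 1.05 ± 0.313 and 0.242 ± 0.0266 in tumor and 5.06 ± 1.05 and 1.61 ± 0.307 in effusion. Hmga2, a chromatin protein of embryonic and tumor cells, stood at 87.5, 85.2 and 81.8 in tumor and at 9.49, 8.81 and 13.8 in effusion. Mir763 lies inside Hmga2 on the same strand of chromosome 10, and reads of the pair cannot be told apart, so its 27.7 ± 5.48 in tumor and 0.967 ± 1.27 in effusion are uncertain. H19, an imprinted non-coding RNA, was at 33.4, 37.9 and 33.5 in tumor and at 0.151, 0.164 and 0.146 in effusion, where 6 or 7 reads supported it. All 7 imprinted growth genes tested were higher in tumor, 5 of them having passed the filter through tumor alone, and Peg3 averaged 16.8 ± 1.23 and 0.498 ± 0.026. Myc, the growth-promoting transcription factor, averaged 210 ± 25.9 in tumor and 43.4 ± 8.9 in effusion.

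All 24 cell cycle genes tested were called higher in tumor and 15 passed the limit of 2, with a median difference of 2.08. Top2a, the topoisomerase that untangles replicated DNA, was at 80.2, 91.8 and 79.3 in tumor and at 10.5, 9.39 and 12.6 in effusion. The proliferation marker Mki67 averaged 53.3 ± 4.6 and 10.3 ± 0.576, and the mitotic checkpoint kinase gene Bub1 27.8 ± 1.41 and 3.02 ± 0.312. Pcna, the replication clamp, and E2f1 differed less, at 84.8 ± 4.12 and 57.1 ± 0.689 and at 12.6 ± 0.372 and 8.18 ± 0.3. The lowest difference in the list was 0.56, and the list was not split by step of the cycle. Sterol synthesis genes were called higher in tumor for 11 of 13, with Cyp51, the lanosterol demethylase, at 15.4 ± 2.09 and 2.53 ± 0.31. All 13 mitochondrially encoded genes were higher in tumor, for example mt-Cytb at 1527 ± 120 and 299 ± 41.

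Glycolytic enzyme genes were uneven. Aldoa, the glycolytic enzyme aldolase A, averaged 195 ± 16.3 in tumor and 496 ± 12.4 in effusion, with a difference of -1.34 (adjusted p = 2.4e-06). Ldha, lactate dehydrogenase A, stood at 354, 355 and 371 in tumor and 365, 363 and 381 in effusion, overlapping groups with a difference of -0.04 (adjusted p = 0.521). Pgk1, phosphoglycerate kinase, averaged 331 ± 5.89 and 327 ± 15.8 (adjusted p = 0.807). The lactate exporter gene Slc16a3 was far higher in effusion, at 7.28 ± 0.672 in tumor and 80.3 ± 8.32 in effusion, and the oxygen-sensing hydroxylase gene Egln3 higher in tumor, at 64.0 ± 1.43 and 10.8 ± 1.57. Of 19 hypoxia and glycolysis genes, 3 were called higher in tumor and 11 in effusion as deposited, but 10 and 5 under total-read scaling, so the list has no firm direction. Heat shock chaperone genes, which respond to heat and other stress, were higher in tumor for 6 of 13 and in effusion for 1. Over all genes these shares were 40.5% and 42.8%. Under total-read scaling the counts for the chaperones were 9 and 0, so they too depend on the scaling. Hspa1a, the classic inducible member, averaged 1.95 ± 0.438 and 2.99 ± 1.01 with overlapping groups (adjusted p = 0.0776). Of 19 immediate early genes, 5 were higher in tumor and 12 in effusion, 1 having passed the filter through each tissue alone, with Fos at 6.31 ± 1.39 and 57.8 ± 5.68 and the related Fosl1 at 56.0 ± 4.15 and 10.4 ± 2.58.

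**Figure D2:**
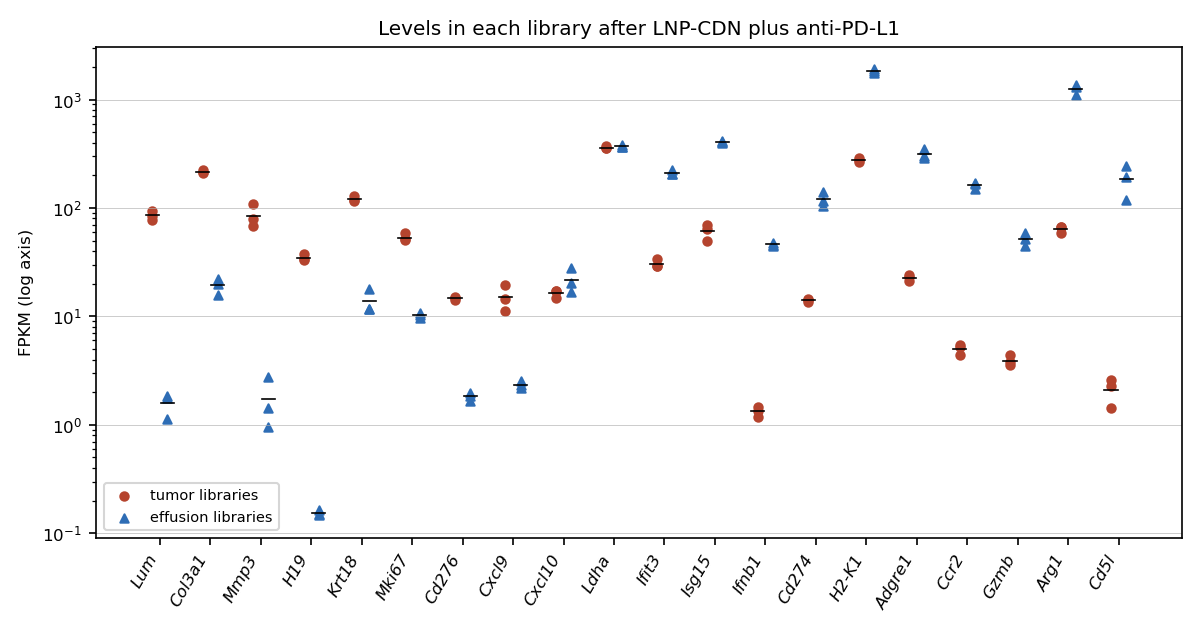
FPKM on a log axis for 20 genes in the 3 tumor libraries (circles) and the 3 effusion libraries (triangles), with black lines at the means. From Lum to Cxcl9 all tumor libraries lie above all effusion libraries, Cxcl10 and Ldha overlap, and from Ifit3 to Cd5l all effusion libraries lie above all tumor libraries. Ifnb1, shown among these, was not tested, since its values are not whole reads at the listed gene length.

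Macrophage genes were higher in effusion. All 12 general macrophage markers tested were higher in effusion and 10 passed the limit of 2, with a median difference of -3.16 and summed levels of 797.5 to 994.8 in tumor and 5618 to 6035 in effusion. Adgre1, encoding the surface protein F4/80, was at 21.4, 23.9 and 23.2 in tumor and at 301, 287 and 350 in effusion, a 13.7-fold ratio of means. Fcgr1, the high-affinity receptor for IgG, averaged 18.8 ± 1.52 and 475 ± 9.04, and all 5 Fc gamma receptor genes passed the limit. The pan-leukocyte gene Ptprc averaged 5.25 ± 0.449 in tumor and 64.4 ± 4.38 in effusion, and its part in these differences was not tested.

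Markers of resident serous macrophages included the lowest differences among the genes named. Cd5l, a secreted inhibitor of cell death, was at 2.29, 1.43 and 2.59 in tumor and at 195, 119 and 241 in effusion, with a difference of -5.87 ± 0.27 (adjusted p = 9.73e-07). Alox15, a lipoxygenase of resident macrophages, was at 1.05, 0.563 and 1.11 in tumor and at 104, 68.6 and 184 in effusion. Both were lowest in effusion replicate 2 and highest in replicate 3. Gata6, the factor that sets this identity, averaged only 2.04 ± 0.269 in tumor and 3.82 ± 1.42 in effusion (adjusted p = 0.0202), a call that was lost under 6 of the alternatives tried. In the list, 13 of 15 genes were higher in effusion, 5 of the 15 having passed the filter through effusion alone. Wwtr1 and Ltbp1, genes that fibroblasts and carcinoma cells also express, were higher in tumor. Alternative activation genes were higher in effusion for 10 of 10, 1 of them having passed the filter through effusion alone, with Arg1, arginase 1, at 63.8 ± 4 in tumor and 1252 ± 137 in effusion and Chil3 at 17.6 ± 3.57 and 522 ± 77.

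Inflammatory monocyte and neutrophil genes followed. Ly6c2, a surface marker of inflammatory monocytes, was at 7.47, 5.36 and 5.55 in tumor and at 246, 303 and 336 in effusion. Of 12 monocyte markers 9 were higher in effusion, 1 of the 12 having passed the filter through effusion alone and 1 through tumor alone. Fn1, Cx3cr1 and Ace were higher in tumor, and Fn1, fibronectin, is also made by fibroblasts. All 11 neutrophil markers tested were higher in effusion, with Cxcr2, a receptor for neutrophil-attracting chemokines, at 1.93 ± 0.33 and 70.0 ± 26.4 and S100a8, a calcium-binding protein of neutrophils and monocytes, at 21.4 ± 9.21 and 286 ± 113. The summed neutrophil list ran from 945.7 to 2089 in the effusion libraries and from 90.97 to 147 in tumor. Ppbp and Pf4, platelet chemokines, averaged 288 ± 88.7 and 1227 ± 119 in effusion and 7.34 ± 2.32 and 44.6 ± 8.34 in tumor. Other leading effusion genes were Ms4a8a and Ms4a4c of a membrane protein family, the leukotriene B4 receptor gene Ltb4r1, Slfn1 and Tmem8, whose mean levels were 35.1 to 45.6 times those in tumor.

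Lymphocyte marker RNA was scarce in both tissues, and most of the T, NK and B cell markers tested passed the filter through effusion alone. All 12 T cell markers tested were higher in effusion, but 11 of them passed the filter through effusion alone and so had to differ. Cd8a, of cytotoxic T cells, was at 0.562, 0.612 and 0.42 in tumor and at 1.84, 1.89 and 1.75 in effusion, while Cd3e stayed below the filter at a mean of 0.217 and 1.02 and was not tested. Cytotoxic effector genes were more abundant and were higher in effusion for 9 of 9, 8 of them past the limit. Gzmb, the protease granzyme B, stood at 3.55, 4.38 and 3.78 in tumor and at 59.1, 51.5 and 44.8 in effusion, and Prf1, perforin, averaged 1.29 ± 0.371 and 14.1 ± 4.15. Ncr1, the natural killer cell receptor NKp46, averaged 0.15 ± 0.0774 and 5.25 ± 0.547. Of 11 NK cell markers tested, 10 were higher in effusion, but 9 of the 11, Ncr1 included, passed the filter through effusion alone and so had to differ. The 3 B cell markers tested all passed it through effusion alone as well. B cell RNA came mainly from effusion replicate 3, where Cd79a, a B cell receptor subunit, was at 11.7 against 1.49 and 1.30 in the other effusion libraries.

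Among dendritic cell genes the named cross-presentation markers parted. Clec9a, the receptor for dead-cell actin on type 1 conventional dendritic cells, was at 8.51, 11.2 and 8.98 in tumor and at 0.547, 0.84 and 0.401 in effusion. Xcr1, the chemokine receptor of the same cells, was below the filter at 0.0506 ± 0.0193 in tumor and 0.392 ± 0.0867 in effusion, and Wdfy4, needed for cross-presentation, averaged 1.66 ± 0.208 and 26.1 ± 1.39. Of 7 conventional dendritic cell markers tested, Clec9a alone was higher in tumor and 6 were higher in effusion, but 1 of the 7 passed the filter through tumor alone and 3 through effusion alone, so these 4 had to differ.

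Interferon-stimulated genes lay on the effusion side. All 34 interferon-stimulated genes tested were higher in effusion and 27 passed the limit of 2, with a median difference of -2.70 and summed levels of 531.8 to 602.1 in tumor and 4459 to 4726 in effusion. Isg15, a ubiquitin-like protein, was at 69.4, 49.9 and 63.6 in tumor and at 410, 404 and 400 in effusion. Ifit3, of the RNA-binding IFIT family, was at 33.6, 29.3 and 28.9 and at 205, 225 and 206, and its relative Ifit1bl1 at 1.63 ± 0.387 and 80.9 ± 3.35. Irf7, the factor that amplifies interferon induction, averaged 22.6 ± 1.81 and 288 ± 2.88. The smallest difference in the list was that of Eif2ak2, the RNA-sensing kinase PKR, at 24.7 ± 1.7 and 49.1 ± 2.13. Ifnb1, interferon beta itself, was listed at 1.33, 1.47 and 1.18 in tumor and at 48, 45.5 and 44.6 in effusion, values that are not whole reads at the listed gene length and so were not tested. All 17 interferon-gamma and GTPase genes were also higher in effusion, 13 past the limit and 1 having passed the filter through effusion alone.

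Promoter windows are shown for interferon-induced genes that did and did not differ between tissues and for a leading tumor gene, from 250 bases before to 50 after the start of transcription, from RefSeq on GRCm38.p6. Capitals mark matches on either strand to GAAANNGAAA, a core of the interferon-stimulated response element, in Ifit1, Isg15 and Cxcl10, and to TGANTCA, the AP-1 site, in the tumor-side gene Mmp3. The Cxcl10 window also holds 1 match to TGANTCA, left in lower case. Ifit1 and Isg15 were higher in effusion, Cxcl10 was not called and Mmp3 was higher in tumor.
Ifit1, chr19:34640639-34640938, plus strand: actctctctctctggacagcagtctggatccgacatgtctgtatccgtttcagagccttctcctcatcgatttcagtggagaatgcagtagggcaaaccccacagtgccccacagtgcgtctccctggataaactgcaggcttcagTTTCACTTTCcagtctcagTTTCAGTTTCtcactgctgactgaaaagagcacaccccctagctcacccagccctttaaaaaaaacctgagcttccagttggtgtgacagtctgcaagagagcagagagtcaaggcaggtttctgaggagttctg
Isg15, chr4:156200769-156201068, minus strand: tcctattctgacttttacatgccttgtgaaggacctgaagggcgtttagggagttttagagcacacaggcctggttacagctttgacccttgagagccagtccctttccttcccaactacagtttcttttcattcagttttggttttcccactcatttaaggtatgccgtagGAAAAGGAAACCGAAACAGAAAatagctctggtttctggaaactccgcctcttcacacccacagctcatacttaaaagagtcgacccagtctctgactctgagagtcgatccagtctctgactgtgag
Cxcl10, chr5:92348840-92349139, minus strand: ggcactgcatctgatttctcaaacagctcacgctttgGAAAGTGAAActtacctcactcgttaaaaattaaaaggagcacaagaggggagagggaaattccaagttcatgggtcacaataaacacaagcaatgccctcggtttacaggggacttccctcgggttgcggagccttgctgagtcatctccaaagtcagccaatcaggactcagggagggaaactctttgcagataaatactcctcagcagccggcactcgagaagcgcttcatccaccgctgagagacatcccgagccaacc
Mmp3, chr9:7445572-7445871, plus strand: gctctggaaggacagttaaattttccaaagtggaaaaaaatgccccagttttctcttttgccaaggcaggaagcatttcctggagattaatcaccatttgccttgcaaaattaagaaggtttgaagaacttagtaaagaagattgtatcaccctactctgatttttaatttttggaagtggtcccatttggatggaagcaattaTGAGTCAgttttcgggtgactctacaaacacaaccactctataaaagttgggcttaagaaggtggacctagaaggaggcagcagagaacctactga

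Ifit1, which averaged 20.9 ± 0.413 in tumor and 96.5 ± 5.34 in effusion, held 2 matches and Isg15 held 3 that overlap each other. Of 9510 tested genes with a window, 3.29% held GAAANNGAAA and 5.17% held TGANTCA, and matches to different motifs, a search for TTCNNNGAA included, overlapped in 11 windows. Only 23 of the 34 interferon-stimulated genes had a window, under the 80% needed, so a check of the motif over the list is void. The genes past the limit of 2 were also under it, with 827 of 1175 effusion-side and 472 of 638 tumor-side genes having a window. A match describes the letters and does not show a factor bound there.

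The sensing genes upstream of interferon differed less evenly. Tmem173, which encodes STING, was at 24.5, 27.8 and 22.4 in tumor and at 89.3, 87.7 and 90.1 in effusion, with a difference of -1.80 ± 0.07 (adjusted p = 6.37e-07). Mb21d1, encoding the enzyme cGAS that makes cGAMP, averaged 0.652 ± 0.0904 and 7.33 ± 0.456, and Enpp1, which degrades extracellular cGAMP, 0.408 ± 0.0359 and 4.95 ± 0.108. Slc19a1, the folate carrier that in human cells also imports cyclic dinucleotides, went the other way at 9.13, 9.14 and 9.9 in tumor and 1.7, 1.56 and 3.2 in effusion. In the list of 12 genes tested, 3 were higher in tumor and 8 in effusion, 1 having passed the filter through tumor alone and 2 through effusion alone.

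Antigen presentation and checkpoint genes were largely effusion genes. All 19 MHC class I and peptide loading genes tested and all 9 class II genes were higher in effusion, 12 and 7 of them past the limit, and 2 of the class II genes passed the filter through effusion alone. H2-K1, a class I heavy chain, was at 287, 267 and 276 in tumor and at 1836, 1754 and 1899 in effusion, and H2-Aa, a class II chain, averaged 8.78 ± 1.83 and 62.5 ± 3.98. Class I genes are near-identical copies in part, and reads may be split between them. Cd274, encoding PD-L1, the antibody's target, was at 14.4, 14.1 and 13.6 in tumor and at 141, 115 and 104 in effusion, an 8.54-fold ratio. Vsir, the checkpoint VISTA of myeloid cells, averaged 8.51 ± 0.779 and 122 ± 6.07. Cd276, the checkpoint ligand B7-H3, was the reverse, at 14.8, 14.1 and 15.2 in tumor and at 1.65, 1.86 and 1.98 in effusion. Of 15 checkpoint genes tested, 4 of which passed the filter through effusion alone, 11 were higher in effusion, and Cd276 and Tigit were higher in tumor.

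Chemokines split by receptor axis. All 8 genes of the CCR2 and CCR1 axis, which draws monocytes, were higher in effusion and past the limit. Ccl6 was at 97.2, 86.8 and 95.7 in tumor and at 3318, 3053 and 2723 in effusion, and Ccl2, the main CCR2 ligand, averaged 148 ± 6.92 and 672 ± 63.9. Ccr2 itself averaged 5.00 ± 0.535 and 162 ± 11.6. Among ligands of CXCR3, a receptor that draws T and NK cells, the neighbouring ligand genes Cxcl9 and Cxcl10 differed. Cxcl9 was at 14.5, 19.6 and 11.3 in tumor and at 2.53, 2.33 and 2.19 in effusion. Cxcl10 was at 17.2, 17.3 and 14.9 in tumor and at 27.7, 16.8 and 20.1 in effusion, overlapping groups (difference -0.34 ± 0.17, adjusted p = 0.0946). The difference of Cxcl10 passed with limma-voom at -0.35 (adjusted p = 0.0368) and without effusion replicate 2 at -0.50 (adjusted p = 0.0177), and turned to 0.04 under total-read scaling. Ccl5, another chemokine that draws T cells, averaged 31.7 ± 4.16 and 173 ± 44.1. Of neutrophil-attracting ligands, Cxcl1 averaged 23 ± 2.52 in tumor and 4.25 ± 0.912 in effusion, whereas Cxcl2 averaged 10.4 ± 2.08 and 31.2 ± 7.2.

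Coagulation genes were also divided, while complement genes lay mostly on the effusion side. The initiator gene F3, tissue factor, averaged 14.6 ± 1.37 in tumor and 1.33 ± 0.284 in effusion, and its inhibitor gene Tfpi 17.7 ± 0.515 and 2.85 ± 0.509. The factors it activates were on the other side, with F7 at 4.15, 1.32 and 1.99 in tumor and 62.7, 78.3 and 83.1 in effusion, and F10 at 4.97 ± 0.699 and 75.4 ± 7.22. Of 13 genes in the list, 4 were higher in tumor and 8 in effusion, 1 on each side having passed the filter through that tissue alone. Complement genes were higher in effusion for 11 of 15, 2 of the 15 having passed the filter through effusion alone, with Cfp, properdin, at 32.5 ± 1.81 and 507 ± 28.4. The only gene of this list called higher in tumor was C1s1, a protease of the first component, at 16.8 ± 0.313 and 5.26 ± 1.2. Hmox1, which breaks down heme, averaged 138 ± 16.3 and 1423 ± 366, and Tfrc, the transferrin receptor gene, was on the tumor side at 29.1 ± 3.95 and 7.49 ± 1.11.

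**Figure D3:**
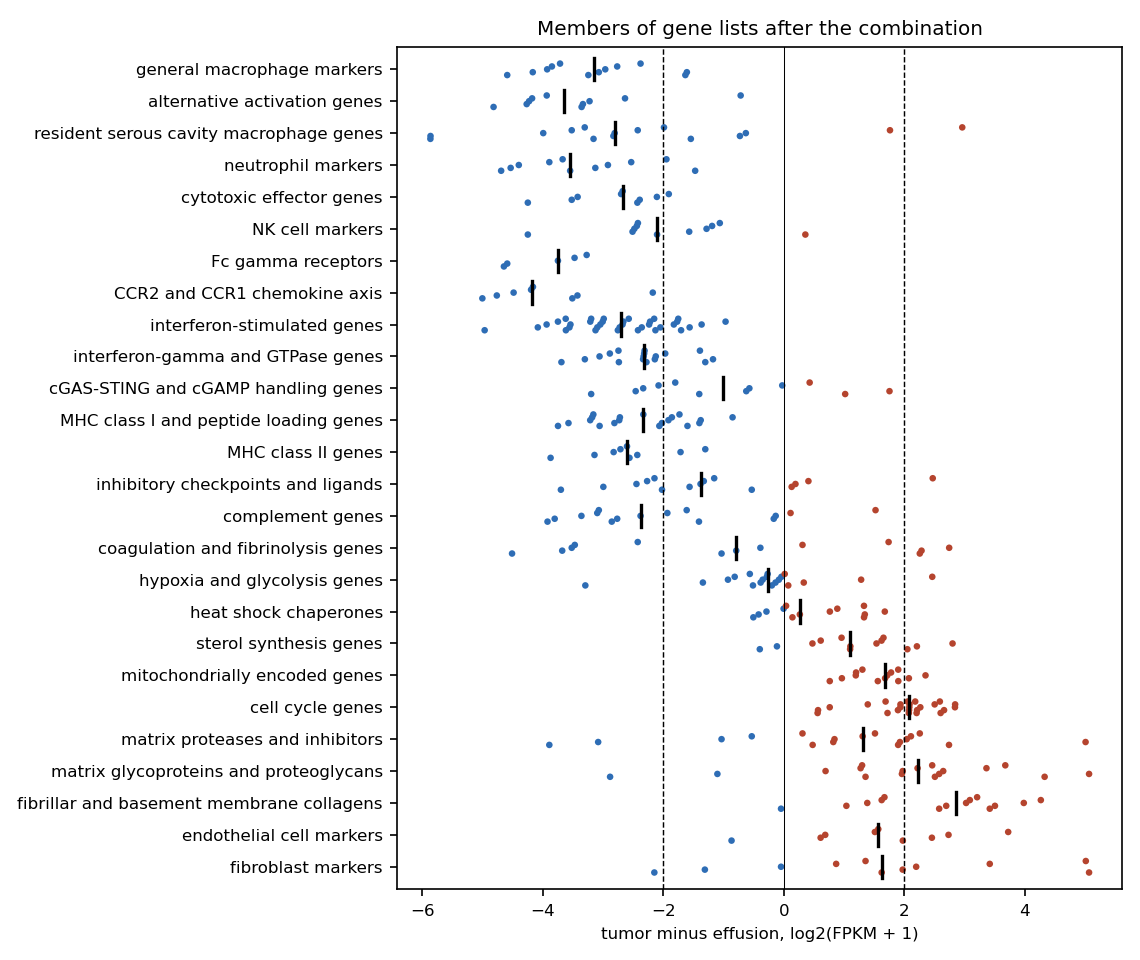
Tumor minus effusion differences on the log2(FPKM + 1) scale for the tested members of the gene lists shown, red where tumor was higher and blue where effusion was higher, with a black bar at each list's median and dashed lines at 2 and -2. Medians run from -4.18 for the CCR2 and CCR1 axis to 2.86 for collagens, with the hypoxia and glycolysis list at -0.27.

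To ask which tissue differences depended on treatment, the same difference was set against that after PBS, in other mice, by an interaction test over 24 libraries. Of 13295 genes, 2212 differed (16.6%), 1105 with the tumor side higher after the combination (8.31%) and 1107 with the effusion side higher (8.33%). Most of the contrast was shared: across genes the tumor minus effusion difference after the combination correlated with that after PBS at r of 0.94 and with that after LNP-CDN alone at 0.985, pairs with no sample in common, given as a description.

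Part of the interferon contrast differed from that after PBS. Of 34 interferon-stimulated genes, 14 shifted to the effusion side relative to PBS and 1, Oas2, to the tumor side, and the median tissue difference was -2.70 after the combination, -2.14 after PBS and -3.07 after LNP-CDN alone. The count of 14 ran from 6 to 18 under the alternatives, so it depends on the setting. It was 7 with a pseudocount of 0.1, 6 with limma-voom and 9 without a filter on low values. It was also 9 without tumor replicate 3 of the combination and 9 without tumor replicate 1 of PBS. Ifit2 shifted by -3.64 ± 0.47 (adjusted p = 9.25e-05): after PBS it averaged 13.0 ± 1.88 in tumor and 6.12 ± 0.301 in effusion, and after the combination 22.1 ± 1.96 and 147 ± 4.04. Ifit2 was thus higher in both tissues after the combination by mean, and more so in effusion. Isg15 shifted by -0.34 ± 0.48 and did not pass (adjusted p = 0.68), at 12.1 ± 2.31 and 66.4 ± 1.35 after PBS. Gpnmb, a glycoprotein of lipid-loaded macrophages, shifted by -3.44 ± 0.23, with effusion at 6.01 ± 1.09 after PBS and 74.8 ± 10.9 after the combination and tumor at 21.2 ± 0.504 and 21.3 ± 3.05.

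**Figure D4:**
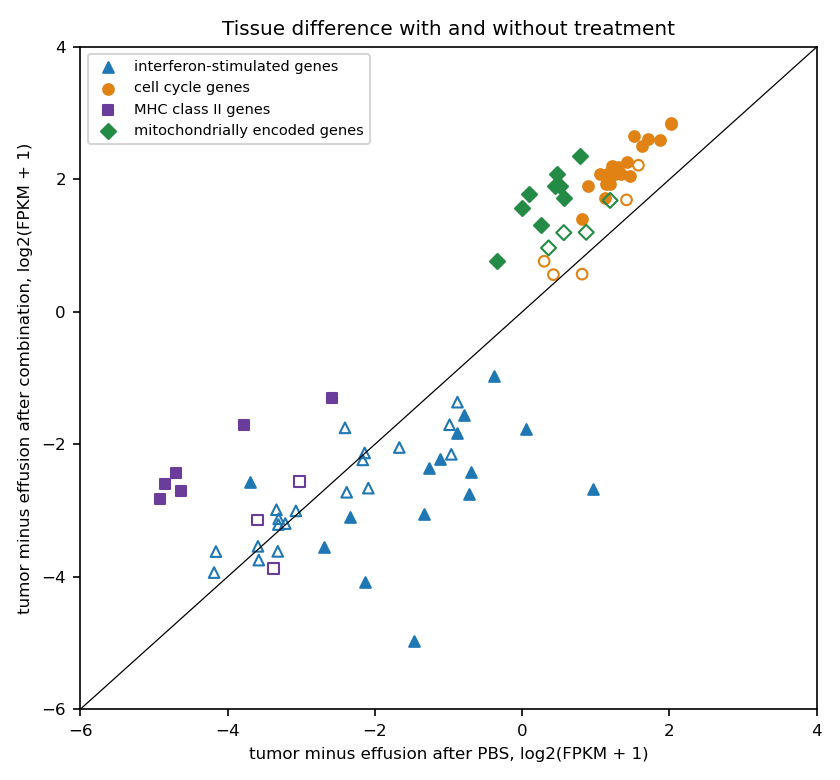
Tumor minus effusion differences after the combination (vertical) against those after PBS (horizontal) on the log2(FPKM + 1) scale for 4 gene lists, filled where the interaction passed an adjusted p of 0.05. The line marks equal differences. All 19 called cell cycle genes, 9 called mitochondrial genes and 6 called MHC class II genes lie above it, and 14 of 15 called interferon-stimulated genes lie below.

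Other lists shifted to the tumor side. Of 24 cell cycle genes, 19 did so and none the reverse, the median difference being 2.08 after the combination and 1.28 after PBS. For Top2a the tumor level was 76.3 ± 7.33 after PBS and 83.8 ± 6.95 after the combination, while effusion was at 17.9 ± 1.31 and 10.8 ± 1.62. In MHC class II, 6 of 9 genes moved to the tumor side (median -3.77 after PBS and -2.60 after the combination). Cd74, the class II invariant chain, was at 955 ± 82.8 in effusion after PBS and 209 ± 16.4 after the combination, and at 30.7 ± 3.61 and 28.9 ± 6.08 in tumor. Of 13 mitochondrially encoded genes, 9 shifted, with mt-Cytb in effusion at 1060 ± 82.3 after PBS and 299 ± 41 after the combination. Fn1 shifted by 2.82 ± 0.54, from 730 ± 56 to 88.5 ± 5.16 in effusion. Lyve1, a hyaluronan receptor of some macrophages and of lymphatic endothelium, shifted by 3.48 ± 0.62, from 235 ± 59.3 to 6.45 ± 1.83 in effusion.

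Against LNP-CDN alone, the tissue difference after the combination was shifted for 1 gene of 13295 (0.00752%), although 455 genes had an unadjusted p under 0.05. That gene was H19, with a shift of 2.49 ± 0.38 (adjusted p = 0.0398). Its effusion level was 6.84 ± 2.25 after PBS, 5.09 ± 0.824 after LNP-CDN and 0.154 ± 0.00905 after the combination, and its tumor level 24.9 ± 4.54, 32.7 ± 5.00 and 34.9 ± 2.61. The call did not hold when any 1 library was left out, with limma-voom (adjusted p = 0.14), with upper-quartile scaling (adjusted p = 0.0516) or with the replicate number as a block (adjusted p = 0.458), and held with total-read scaling (adjusted p = 0.0348) and over the 12 libraries compared (adjusted p = 0.000166).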

How the data were processed

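RNA was sequenced from pleural effusion cells and digested pleural tumors after poly-A selection. The kit was not a stranded one, per the labels' protocols, and reads of a gene cannot be separated from those of an overlapping or antisense neighbour. The authors deposited 1 FPKM value per gene and library. Per the submitters' processing notes the build was mm9 and the tools were DESeq2, STAR, fastp and featureCounts, with no version or role given, while 53560 of the 54469 gene IDs shared with GENCODE M21 have its GRCm38 start and end. Whole reads, within 0.01 read, were recovered from FPKM, gene length and 1 factor per library. Values of 21 genes were not whole reads in the 6 libraries and none of them was tested, which removed 17 of 13312. 27 symbols stored as dates were restored by gene ID. Libraries were grouped by title, and counts of replicates differed beyond sampling noise (chi-square divided by its degrees of freedom, 4.90 to 20.9).

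Differences in log2(FPKM + 1) were tested with limma 3.58.1 in R 4.3.3, with moderated variances and a trend, over the 6 libraries. Treatment interactions were tested over all 24 libraries as 8 group means. P-values are two-sided with Benjamini-Hochberg adjustment over all genes tested, and a call is an adjusted p under 0.05. The pseudocount shrinks differences of low genes. With 3 libraries a side the smallest p of an exact permutation test is 0.1, so calls rest on the spread shared over genes. Values after ± are the SD of 3 libraries for levels and the SE for differences. The fit was tested on simulated data, in a single draw, where false calls exceeded the nominal rate in the tissue comparison and in the interaction with PBS, and few of the smallest changes were recovered, so calls on small differences are the least certain. Genes are named by a rule: the 12 highest and 12 lowest called genes without overlap whose higher tissue had a mean FPKM of 5 or more, up to 4 of the largest called differences per list, core genes whatever their result, and 5 each way per interaction. Predicted, ribosomal, mitochondrial and antigen receptor symbols were left out of the ranking. The list members Ace, Alb, C1s1, Ccl2, Col1a2, Cxcl2, E2f1, Eif2ak2, Epcam, F3, Fosl1, H2-K1, Hspa1a, Ifit3, Irf7, Kdr, Ldha, Ltbp1, Mmp14, Myc, Oas2, Pcna, Pgk1, Pi16, Plau, Slc19a1, Tfpi, Tfrc, Thbs1, Thy1, Tigit, Upk3b, Vcan, Wwtr1 and Xcr1 fall outside this rule and were chosen after their values were seen. The members and lists were chosen with earlier results of these data known. Promoter windows were RefSeq's. Tables and figures used Python 3.11.15, pandas 2.3.3, numpy 2.4.6 and matplotlib 3.10.9. Alternatives were a pseudocount of 0.1, other filters, other scalings, limma-voom, other sets of libraries, a block for the replicate number and leaving out each library, and total-read scaling was added after seeing the data. Some genes are not reported here.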

Additional observations from a re-analysis of the deposited data

Results flagged for a closer look

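The following genes had a tissue difference after the combination that differed from the tissue difference after PBS by the interaction test, taking 5 each way by the naming rule. Alas2, of heme synthesis in red cell precursors, shifted to the tumor side by 3.98, with effusion at 36.7 ± 20.5 after PBS and 0.243 ± 0.267 after the combination, and tumor at 3.21 ± 1.09 and 1.34 ± 0.125. Lyve1 shifted by 3.48, H19 by 3.21, Fn1 by 2.82 and Cd79a by 2.61, all to the tumor side. Cd79a varied within effusion, at 24.5 ± 9.35 after PBS and 4.83 ± 5.94 after the combination.

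To the effusion side, Ifit2 shifted by -3.64, Ifit1bl1 by -3.5, Gpnmb by -3.44, BC021767 by -2.99 and Mmp27 by -2.62. Mmp27, a metalloproteinase gene, was in effusion at 1.20 ± 0.226 after PBS and 19.3 ± 2.03 after the combination. BC021767 was at 0.284 ± 0.0609 and 9.95 ± 2.48. Of these shifts, those of Cd79a and Ifit1bl1 did not pass with limma-voom. Against LNP-CDN alone, H19 shifted by 2.49.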

How the results depend on the processing

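Numbers of called genes stayed within 1.5 times the reported count for the tissue comparison and for the interaction with PBS under every alternative run, with 10638 to 11011 and 1505 to 2142 called when each library was left out in turn, and 3051 for the PBS interaction over the 12 libraries compared. The interaction with LNP-CDN moved from 1 gene to 5 without a filter on low values (4 tumor side, 1 effusion side). It was 0 with an FPKM of at least 1 in all 6 libraries, with upper-quartile scaling, with limma-voom, with the replicate block and whichever library was left out (0 to 0). Cacnb3 reversed, to 0.025 with upper-quartile and 0.143 with total-read scaling, and Cxcl10 to 0.043 with total-read scaling. Of 230 named genes, 11 lost their call or sign in some alternative, among them Lyve1, Gata6 and Cd79a, and Acta1 with limma-voom. Integrin and unfolded protein response lists, like glycolysis, changed sides under total-read scaling. Mesothelial cell markers and endothelial cell markers changed sides where an FPKM of at least 1 in all 6 libraries left 1 and 2 genes, and the keratin list's median did without a filter.

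Same-numbered tumor and effusion libraries did not deviate together after the combination (r of -0.0057, 0.0221 and -0.0155). After LNP-CDN alone r was 0.143, 0.0329 and 0.115 for same-numbered libraries, against -0.125 to 0.000506 for differently numbered ones. Same-numbered r was 0.0143, -0.0520 and 0.0644 after PBS and 0.279, -0.0142 and 0.162 after the antibody alone. Differently numbered libraries reached 0.0844 after PBS and 0.140 after the antibody alone. Whether same-numbered libraries came from the same mouse was not tested. With the replicate block 10931 genes were called in the tissue comparison, 1969 for PBS and 0 for LNP-CDN. With 3 libraries per group, genes near an FPKM of 1 are the least certain.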
